A study of Mus musculus with 8 samples.

Results

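Epiblast stem cells (EpiSC) were compared with epiblast-like cells (EpiLC) in wild-type (WT) cells of the R1 mouse embryonic stem cell line. The comparison is a step from formative to primed pluripotency. All libraries labelled EpiSC WT and EpiLC WT were taken, which gave 4 of the 8 RNA-seq libraries of the series, 2 of each stage. EpiLC were kept for 2 days on fibronectin (15 µg/ml) in N2B27 medium that held activin A at 20 ng/ml, bFGF at 12 ng/ml and KSR, a serum replacement, at 10 µl/ml. EpiSC were passaged for at least 8 days on fibronectin at the same concentration, in N2B27 with activin A and bFGF at those doses. Both stages came from embryonic stem cells kept with LIF and with 0.4 µM PD0325901 and 3 µM CHIR99021, inhibitors of MEK and GSK3. The other 4 libraries carried the same stages of the Mll3/4 dCD genotype, in which the H3K4 methyltransferases MLL3 and MLL4 are catalytically dead. They are used below only to set the same stage change of another genotype beside the WT values. The labels do not say that replicates were separate cultures, so the p-values measure the spread between these libraries, which may be technical.

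Formative cells stand between the naive ground state and lineage priming, and are known for their ability to form primordial germ cells when given BMP signals. Primed EpiSC resemble the anterior primitive streak of the gastrulating embryo, depend on activin/Nodal and FGF signalling, and are known to have largely lost that germline ability. In the streak, Nodal and Wnt signals switch on the T-box factors T and Eomes, whose targets shape mesoderm and definitive endoderm, while secreted antagonists such as Cer1, Lefty1 and Dkk1 limit the same signals.

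The deposited values are transcript abundances per transcript length, so that levels of different genes can be set side by side. The stages were deposited in tables that had been scaled apart, and the 4 WT columns were rescaled together before any comparison. Values below are these rescaled abundances, and a fold change is the difference between stage means of log2(value + 1), which understates the change of low genes. A gene was tested when its value reached 1 in at least 2 of the 4 libraries, and called when the adjusted p of limma, with Benjamini-Hochberg adjustment over all genes tested, was under 0.05. Of 32334 genes listed, 12002 were tested. A gene that reached 1 in the libraries of only 1 stage had to differ, so the counts of list members below are descriptions, and the members that passed in this way are given beside them. The deposited columns summed to between 823909 and 921194, sequencing depth is unknown, and mitochondrial genes took 3.63% to 4.12% of each library. Pearson's r across tested genes was 0.991 between the EpiLC libraries, 0.995 between the EpiSC libraries and 0.938 to 0.944 across stages. Genes are not independent replicates.

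Markers shared by both stages were present in every library. Pou5f1, the core pluripotency factor also known as Oct4, was at 1596 and 1822 in EpiLC and at 1080.4 and 1149.7 in EpiSC. The stages did not overlap, and Pou5f1 was lower in EpiSC (log2 fold change -0.61, SE 0.14, limma adjusted p = 0.0141). That call was lost without either EpiSC library, with limma adjusted p = 0.277 without replicate 1 and 0.19995 without replicate 2. Lin28a, an RNA-binding protein of pluripotent cells, was at 308 and 280 in EpiLC and at 297 and 299 in EpiSC, and the stages overlapped. Sox2, the partner of Pou5f1, was at 30.7 and 28.5 in EpiLC and at 27.4 and 30.2 in EpiSC, again with overlap. Several naive markers were low in both stages. Esrrb, an orphan nuclear receptor, read 0.340 and 0.373 in EpiLC and 0.951 and 0.754 in EpiSC, Tbx3 stayed at or under 0.145, and Prdm14 stayed at or under 0.0346.

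The two-cell-like list gave no tested member, and Hbb-bh1 and Hba-x, the embryonic globins, were at 0 in all 4 WT libraries. Markers of other cell types moved with stage. The 14 fibroblast and feeder markers with a value summed to 222 and 233 in EpiLC and to 99.5 and 94.5 in EpiSC. Of 13 tested members, 9 were called lower (69.2%, against 19.3% of all genes tested), 2 of them through EpiLC only. The 1 called higher (7.69%, against 23.8%) passed through EpiSC only. Col3a1, a fibrillar collagen, went from 46.1 and 43.6 to 6.85 and 8.89 (log2 fold change -2.38, SE 0.13), and Thy1, a surface protein of fibroblasts and neurons, from 11.9 and 13.4 to 3.27 and 4.04 (-1.56, SE 0.14). The part of these cells in the results was not tested. In bulk libraries such as these, fewer cells of a type and less RNA per cell cannot be told apart. Stage also cannot be told apart from any batch that the labels leave unnamed.

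The change between stages was broad. Limma called 5177 genes (43.1% of those tested), 2855 higher in EpiSC (23.8%) and 2322 lower (19.3%). At least 2-fold on the log2(value + 1) scale, 789 genes were higher (6.57%) and 543 lower (4.52%). At least 4-fold, 168 were higher and 96 lower, and at least 16-fold, 23 were higher and 9 lower. Both stages stood apart without overlap for all 5177 called genes, as they did for 74.5% of all genes tested. The balance of directions rests on the scaling. The median log2 fold change of the genes tested was 0.01 after rescaling, and with the columns as deposited it was 0.16, with 4007 genes called higher and 1541 lower. Scaled to the same total, 2872 were higher and 1564 lower. The number of calls also depends on the libraries in the fit, and fell without an EpiSC library and rose without an EpiLC library. With 1 EpiSC library left out, the spread is that of the EpiLC pair alone. The EpiLC pair was the wider, with a replicate SD of 0.209 against 0.145 in EpiSC on the log2(value + 1) scale. Such fits therefore do not show which library a call rests on, and no called gene changed sign in them.

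**Figure D1:**
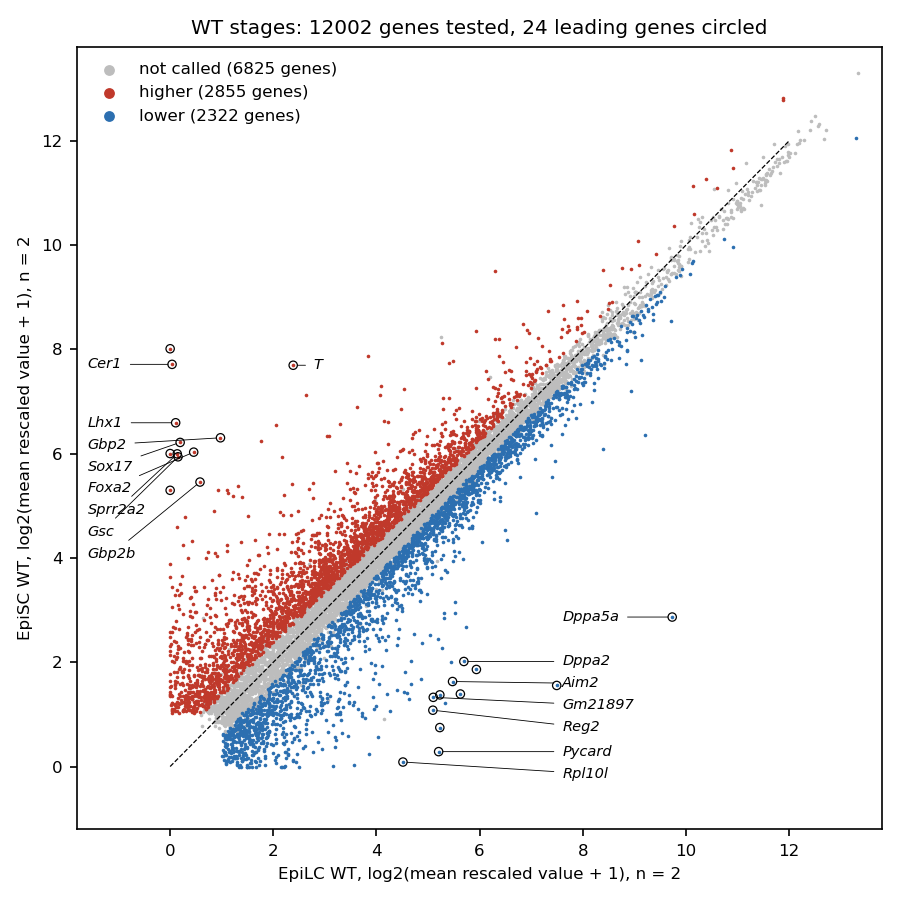
Mean of both EpiLC WT libraries (x axis) against mean of both EpiSC WT libraries (y axis), each as log2 of the rescaled value + 1, for the 12002 genes tested. Red points are the 2855 genes called higher in EpiSC, blue points the 2322 called lower, circles the 24 leading genes with protein-coding ones named; Cer1, Lhx1 and Sox17 sit at the left edge and Dppa5a at the lower right.

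The leading genes are the 12 largest rises and the 12 largest falls among called genes with a mean of at least 5. Of the 12 rises, 6 were factors of the anterior primitive streak and definitive endoderm: Cer1, Lhx1, Sox17, Gsc, Foxa2 and T. Cer1, a secreted antagonist of Nodal, BMP and Wnt, lies on chromosome 4 (GRCm38, 82881751 to 82885148) and was at 0.0344 and 0.0179 in EpiLC and at 247 and 170.4 in EpiSC. Both EpiSC libraries were far above both EpiLC libraries (log2 fold change 7.65, SE 0.18, limma adjusted p = 1.62e-05). Lhx1, a LIM homeobox factor of the head organizer (chromosome 11, 84518284 to 84525535), was at 0.123 and 0.0306 in EpiLC and at 122 and 68.6 in EpiSC (6.43, SE 0.26). Sox17, which specifies endoderm (chromosome 1, 4490931 to 4497354), went from 0.0962 and 0.191 to 88.0 and 58.7 (6.00, SE 0.20). The homeobox factor Gsc, named goosecoid, went from 0.121 and 0.102 to 78.6 and 42.2 (5.72, SE 0.27). Foxa2, a pioneer factor of endoderm and axial mesoderm, went from 0.420 and 0.325 to 74.3 and 54.3 (5.56, SE 0.17). T, or Brachyury, the T-box factor of the streak, was not silent in EpiLC, at 4.44 and 4.00, and reached 228 and 184 in EpiSC (5.30, SE 0.13). In each of these 6 genes both EpiSC libraries lay above both EpiLC libraries, and EpiSC replicate 1 above replicate 2.

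Other leading rises belong to other processes. Gbp2 and Gbp2b encode interferon-induced guanylate-binding proteins and lie next to each other on chromosome 3. Gbp2 went from 0.896 and 1.04 to 86.0 and 70.1 (5.32, SE 0.13), and Gbp2b from 0.451 and 0.536 to 46.7 and 39.1 (4.87, SE 0.13). Sprr2a2, a small proline-rich protein of cornified epithelia, went from 0.0482 and 0.152 to 73.1 and 52.6 (5.84, SE 0.18). Its relative Sprr2a3 rose as well, from 0.0519 and 0 to 8.96 and 5.69. Copies of Sprr2a2 were not searched, so whether the pair share reads is not known. The remaining leading rises were processed pseudogenes, and their values are uncertain because reads can be split with a near-identical copy. Gm10241 (0 and 6.46e-06 in EpiLC, 264 and 251 in EpiSC) is identical over 286 bases to Sumo2. Pgam1-ps2 is identical over 765 bases to Pgam1, and Gm15452 over 240 bases to Cks2.

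The leading falls opened with Dppa5a, an RNA-binding protein of naive pluripotent cells (chromosome 9, 78367052 to 78368177). It was at 706 and 994 in EpiLC and at 5.94 and 6.65 in EpiSC (log2 fold change -6.85, SE 0.17, limma adjusted p = 1.62e-05), with no overlap. Pycard, the adaptor of inflammasomes, went from 31.3 and 40.5 to 0.117 and 0.321 (-4.91, SE 0.17), and Aim2, a DNA sensor that signals through that adaptor, from 44.6 and 42.3 to 2.77 and 1.42 (-3.88, SE 0.21). Rpl10l, a retrogene copy of a ribosomal protein used in spermatocytes, went from 20.2 and 23.4 to 0.123 and 0 (-4.43, SE 0.14). Reg2, a secreted lectin of the regenerating-gene family, went from 37.5 and 28.8 to 0.888 and 1.34 (-4.01, SE 0.17). Dppa2, a chromatin factor that counters DNA methylation at its targets, was at 50.8 in both EpiLC libraries and at 3.09 and 2.99 in EpiSC (-3.68, SE 0.10). Each of these falls was far larger than the spread between replicates.

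The other leading falls have near-identical copies and are uncertain for the same reason. Gm12918 is identical over 636 bases to the ribosomal protein gene Rpl13, and its EpiSC libraries disagreed, at 0.00212 and 3.87 against 220.1 and 138 in EpiLC. Gm48128, Gm48493 and Gm42927 are annotated as processed pseudogenes, and each resembles 155 other annotated genes. Gm48128 and Gm48493 are 99.9% identical over 3840 bases. Gm48415 resembles 150 other genes, and Gm21897, annotated as protein coding, resembles 134. Together these 5 sequences of many copies had log2 fold changes between -4.54 and -3.75, and none of their EpiSC values exceeded 2.87.

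In absolute terms the ranking differed. The 6 largest falls in mean abundance were mt-Atp8, Gm28438, Dppa5a, Pou5f1, Mt2 and Dnmt3b, and the 6 largest rises were mt-Co1, Gm28661, mt-Cytb, Gm28437, mt-Nd4l and Actg1. Mt2, a metallothionein that binds zinc, went from 515 and 657 to 76.8 and 85.3 (log2 fold change -2.83, SE 0.14, limma adjusted p = 7.64e-05). mt-Co1, the mitochondrial subunit of cytochrome c oxidase, went from 2995 and 4579 to 7058 and 7499.7 (0.97, SE 0.26), while mt-Atp8, a short subunit of ATP synthase, went from 10850.3 and 9266 to 3325 and 5235 (-1.26, SE 0.28). Gm28438, Gm28661 and Gm28437 are nuclear pseudogenes of mitochondrial sequence that can share reads with those genes. Without EpiSC replicate 1 the log2 fold change was 1.03 for mt-Co1 and -0.93 for mt-Atp8. Without EpiSC replicate 2 these changes were 0.94 and -1.58. Both calls were lost when either EpiSC library was left out, with the spread taken from the EpiLC pair alone. So were those of Gm28438, Gm28661, mt-Cytb, Gm28437, mt-Nd4l and Actg1.

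Promoters are shown for the 3 leading rises and the 3 leading falls that the RefSeq table of GRCm38.p6 holds, to let the sequences beside the opposite changes be read together. Of 12002 tested genes, 9114 had an entry, as did 12 of the 24 leading genes. Each window runs 5′ to 3′ on the gene's strand, from 250 bases before the start to 50 after it. Capitals mark 4 motifs, searched on both strands. The TATA box was spelled TATAAA, the core bound by TCF/LEF factors CTTTGA, the core bound by T-box factors TCACACC, and the octamer bound by POU factors ATGCAAAT. The Rpl10l match reads in reverse, on the other strand. Cer1 is at chr4:82885102-82885401 on the minus strand, Lhx1 at chr11:84525485-84525784 on the minus strand and Sprr2a2 at chr3:92250397-92250696 on the plus strand. Pycard is at chr7:127993818-127994117 and Rpl10l at chr12:66284352-66284651, both on the minus strand, and Reg2 at chr6:78404905-78405204 on the plus strand.
Cer1: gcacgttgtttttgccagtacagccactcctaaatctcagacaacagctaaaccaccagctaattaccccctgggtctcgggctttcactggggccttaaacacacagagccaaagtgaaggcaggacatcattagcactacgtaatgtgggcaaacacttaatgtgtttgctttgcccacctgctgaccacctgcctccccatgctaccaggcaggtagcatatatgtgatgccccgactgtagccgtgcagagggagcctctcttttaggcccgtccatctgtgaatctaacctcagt
Lhx1: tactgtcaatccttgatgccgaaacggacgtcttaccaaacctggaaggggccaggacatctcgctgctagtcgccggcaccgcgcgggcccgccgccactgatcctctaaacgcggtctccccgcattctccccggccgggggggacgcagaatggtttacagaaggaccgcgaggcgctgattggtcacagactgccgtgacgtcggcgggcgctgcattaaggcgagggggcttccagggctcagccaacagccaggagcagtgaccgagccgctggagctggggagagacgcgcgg
Sprr2a2: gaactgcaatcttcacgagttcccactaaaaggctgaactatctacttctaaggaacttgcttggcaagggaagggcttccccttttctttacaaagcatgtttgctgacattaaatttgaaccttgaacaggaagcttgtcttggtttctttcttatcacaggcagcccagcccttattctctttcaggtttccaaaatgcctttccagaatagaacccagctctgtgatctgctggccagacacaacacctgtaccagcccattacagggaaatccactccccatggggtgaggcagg
Pycard: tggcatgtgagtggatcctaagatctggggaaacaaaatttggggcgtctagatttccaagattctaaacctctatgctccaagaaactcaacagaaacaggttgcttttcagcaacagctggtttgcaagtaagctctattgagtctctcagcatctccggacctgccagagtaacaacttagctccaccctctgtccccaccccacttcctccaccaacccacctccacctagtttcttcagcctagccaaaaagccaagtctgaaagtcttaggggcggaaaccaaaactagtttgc
Rpl10l: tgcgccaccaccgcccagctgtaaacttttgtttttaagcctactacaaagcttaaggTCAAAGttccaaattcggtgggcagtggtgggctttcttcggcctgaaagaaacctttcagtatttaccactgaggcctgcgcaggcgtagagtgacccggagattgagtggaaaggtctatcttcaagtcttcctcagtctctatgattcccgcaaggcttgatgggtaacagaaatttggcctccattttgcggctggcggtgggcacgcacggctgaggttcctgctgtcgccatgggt
Reg2: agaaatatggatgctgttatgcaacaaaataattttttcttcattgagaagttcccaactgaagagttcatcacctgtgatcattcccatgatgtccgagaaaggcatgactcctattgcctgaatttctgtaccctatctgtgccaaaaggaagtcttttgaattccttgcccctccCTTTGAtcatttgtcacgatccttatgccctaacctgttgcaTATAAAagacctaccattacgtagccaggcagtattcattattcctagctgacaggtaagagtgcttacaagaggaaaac
None of the 4 motifs occurred in the windows of the 3 rises or of Pycard. The TCF/LEF core occurred in those of Rpl10l and Reg2, and the TATA box in that of Reg2 alone. CG dinucleotides numbered 31 in the Lhx1 window, 6 in that of Cer1, 1 in that of Sprr2a2, 13 in that of Rpl10l and 3 each in those of Pycard and Reg2. Over all genes, the TATA box was found in 10.6% of the promoters of genes higher by at least 2-fold and 6.91% of those lower by at least 2-fold, against 6.52% of tested genes and 14.2% of all promoters in the table. The TCF/LEF core was found in 12.7%, 11%, 11.6% and 16.2% in the same order, the T-box core in 2.30%, 4.70%, 3.32% and 3.96%, and the octamer in 1.77%, 3.87%, 1.46% and 1.75%. The median number of CG was 16 in promoters of genes higher by at least 2-fold, 15 in those lower and 21 in those of tested genes. These shares are a description, and a match is not a binding site.

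In the primitive streak list, 16 of 25 members with a value passed the filter. Of these, 14 were called higher (87.5%, against 23.8% of all genes tested) and none lower (against 19.3%). Of the 16, 6 reached 1 in EpiSC only, and all 6 were among the rises. The other 10 reached it in both stages, with 8 called higher and 2 not called. Apart from the leading genes above, Fgf8, an FGF ligand of the streak, went from 10.1 and 12.6 to 150.4 and 84.7 (log2 fold change 3.21, SE 0.26). Apela, a ligand of the apelin receptor, went from 14.5 and 17.4 to 149 and 162. Mixl1, a homeobox factor of mesendoderm, went from 1.16 and 1.12 to 24.3 and 8.78 (2.88, SE 0.40), and Eomes, the other T-box factor, from 11.2 and 9.13 to 62.8 and 37.4 (2.15, SE 0.24). The stages did not overlap for any of these 4 genes. Wnt3, which starts the streak in the embryo, overlapped, at 8.05 and 7.84 in EpiLC and at 10.1 and 7.01 in EpiSC. Markers of later mesoderm stayed low in all 4 libraries, with Mesp1 at or under 0.759, Tbx6 at or under 0.521 and Msgn1 at or under 0.656.

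EpiSC replicate 1 lay above replicate 2 in 15 of the 16 tested streak genes, with a median difference of 0.47 on the log2(value + 1) scale, and in 11 of 13 tested endoderm genes, with a median of 0.40. Over all genes tested the median difference was 0.01. Among genes called higher by at least 2-fold, replicate 1 was the higher in 64.0%, against 52.7% of all genes tested. Of the streak genes, 13 were called higher without EpiSC replicate 1 and 14 without replicate 2.

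**Figure D2:**
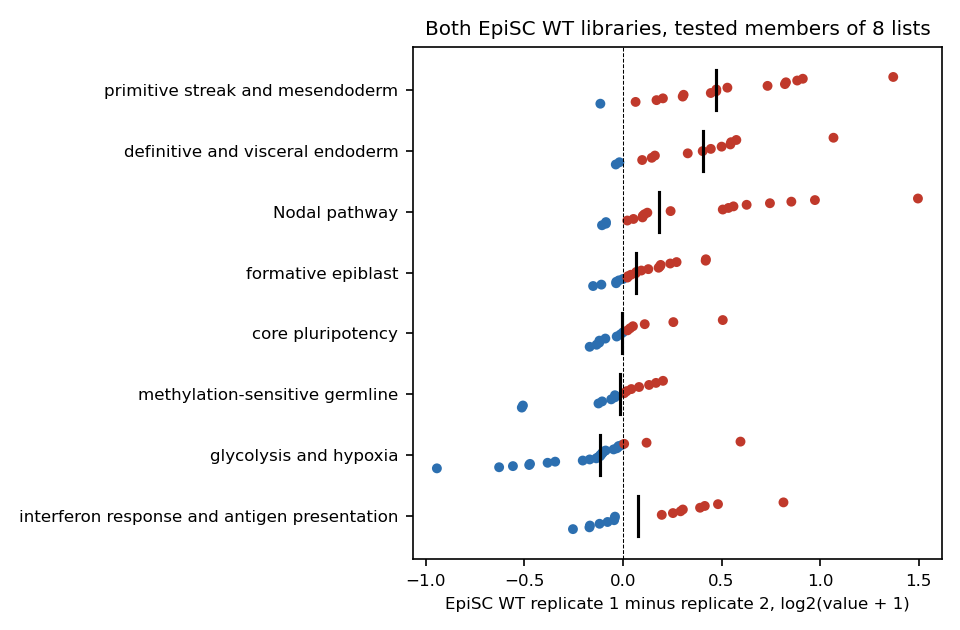
Difference between EpiSC WT replicate 1 and replicate 2 in log2(value + 1) (x axis) for tested members of 8 gene lists (rows), each point a gene, red where replicate 1 is higher and blue where replicate 2 is higher, with the median of each list as a bar. The streak list has 15 of 16 points to the right of 0 and a median of 0.47; the list for core pluripotency is centred near 0.

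The endoderm list had 10 of 13 tested members called higher (76.9%) and 2 lower (15.4%), against 23.8% and 19.3% of all genes tested. However, 7 of the rises reached 1 in EpiSC only and 1 of the falls in EpiLC only. Of the 5 that reached it in both stages, 3 were higher and 1 lower. Besides Sox17 and Foxa2, Cxcr4, a chemokine receptor of definitive endoderm, went from 0.892 and 0.918 to 45.6 and 30.9 (4.34, SE 0.19), and Foxa1, a second pioneer factor, from 0.194 and 0.0930 to 10.98 and 9.71 (3.31, SE 0.13). Both genes were apart between the stages. Visceral endoderm markers stayed low, with Afp at or under 0.111, Apob at or under 0.135 and Hnf4a at or under 0.356. The trophoblast list had 8 of 10 tested members called higher (80%), 3 of them through EpiSC only, and 1 lower (10%), through EpiLC only. Of the trophoblast genes, Krt19, a keratin, went from 3.05 and 3.21 to 86.7 and 99.4 (4.50, SE 0.11). Elf5, a factor more restricted to that lineage, was at or under 0.223. Among markers of endothelium and blood, Flt1, a VEGF receptor, went from 1.73 and 1.53 to 40.7 and 28.8 (3.75, SE 0.18), while Cdh5 and Tie1, which define endothelium, were at or under 0.164 and 0.0344. Of the 5 tested members of that list, 3 were called higher (60%), 1 of them through EpiSC only. Etv2 was called lower (-1.14), the only fall (20%). The summed level of that list was 12.7 and 14.8 in EpiLC and 52.7 and 39.1 in EpiSC, and most of the EpiSC sums came from Flt1. The part of these markers in the results was not tested.

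Counts in the signalling lists are to be read against the 23.8% of all genes called higher and the 19.3% called lower. In the Nodal list 6 of 18 tested members were called higher (33.3%), 1 of them through EpiSC only, and 8 lower (44.4%). Nodal itself was at 54.9 and 59.6 in EpiLC and at 50.6 and 34.0 in EpiSC, and did not pass the test (limma adjusted p = 0.0865). It was called lower without EpiSC replicate 1 (adjusted p = 0.0130). The related ligands Gdf3 and Gdf1 fell, Gdf3 from 27.1 and 29.0 to 2.06 and 2.30 (-3.19, SE 0.11) and Gdf1 from 18.03 and 22.04 to 1.70 and 1.87 (-2.91, SE 0.14). Gdf1 shares its transcript with Cers1, so the reads of the pair cannot be told apart. Tdgf1, the co-receptor also named Cripto, went from 227 and 249 to 194 and 136 and was called lower. Among the antagonists, Cer1 rose and Lefty2 went from 25.6 and 28.3 to 14.8 and 7.74 (-1.25, SE 0.26). Lefty1 was at 62.4 and 81.7 in EpiLC and at 259 and 91.3 in EpiSC and did not pass (1.098, SE 0.44, limma adjusted p = 0.0905), with the EpiSC libraries far from each other. Without EpiSC replicate 2 it was called higher (adjusted p = 5.03e-04). Among the intracellular members, Smad3 went from 6.74 and 5.13 to 13.82 and 14.7 and was called higher, and Smad7, the inhibitory Smad induced by the pathway, went from 23.1 and 20.2 to 9.26 and 5.12 and was called lower.

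In the Wnt list, 14 of 28 tested members were called higher, 5 of them through EpiSC only, and 7 lower (25%, near the share of all genes). The secreted inhibitors Dkk1 (0.214 and 0.224 to 29.8 and 23.1, log2 fold change 4.48, SE 0.15) and Sfrp1 (8.59 and 7.83 to 56.5 and 43.0, 2.45, SE 0.15) rose. So did Sp5, a transcription factor induced by Wnt, from 0.179 and 0.204 to 21.5 and 14.6 (3.97, SE 0.19), and Lgr5, a receptor of R-spondins, from 0.416 and 0.397 to 7.25 and 6.27 (2.46, SE 0.13). Axin2, another widely used Wnt target, was not called, at 8.78 and 6.23 in EpiLC and at 13.1 and 9.16 in EpiSC. In the BMP list, 9 of 17 tested members were called higher, 2 of them through EpiSC only, and 2 lower, 1 of them through EpiLC only. Bmp2 (0.314 and 0.232 to 16.4 and 13.4) and Bmp7 (1.21 and 1.11 to 18.2 and 18.02), both ligands, rose by 3.64 (SE 0.14) and 3.15 (SE 0.11). The BMP antagonists Nog and Chrd rose as well, Nog from 0.366 and 0.405 to 9.61 and 10.1 (2.97, SE 0.12) and Chrd from 1.22 and 1.103 to 38.8 and 35.6 (4.14, SE 0.12). Id1, a direct BMP target, went from 3.98 and 4.14 to 29.2 and 25.5 (2.48, SE 0.12). All of the Wnt and BMP genes called here were apart between the stages.

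Of 19 tested FGF genes, 9 were called higher, 1 of them through EpiSC only, and 4 lower (21.1%, near the share of all genes). Among the ligands, Fgf5 and Fgf8 rose while Fgf4 and Fgf15 fell. Fgf5, a marker of formative cells, went from 89.1 and 84.1 to 230.1 and 202 (1.31, SE 0.10), and Fgf15 from 30.2 and 33.2 to 5.45 and 3.97 (-2.53, SE 0.15). Fgf4, the ligand made by naive cells, went from 32.98 and 32.3 to 11.8 and 14.4 (-1.26, SE 0.12). In the Notch list 5 of 15 tested members were called higher (33.3%) and 4 lower (26.7%), with the target Hes1 from 15.4 and 17.7 to 65.4 and 49.1 (1.72, SE 0.15) and the ligand Jag2 from 19.03 and 20.2 to 8.07 and 7.83 (-1.21, SE 0.10). The calls higher in this list numbered 2 without EpiSC replicate 1 and 3 without replicate 2.

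**Figure D3:**
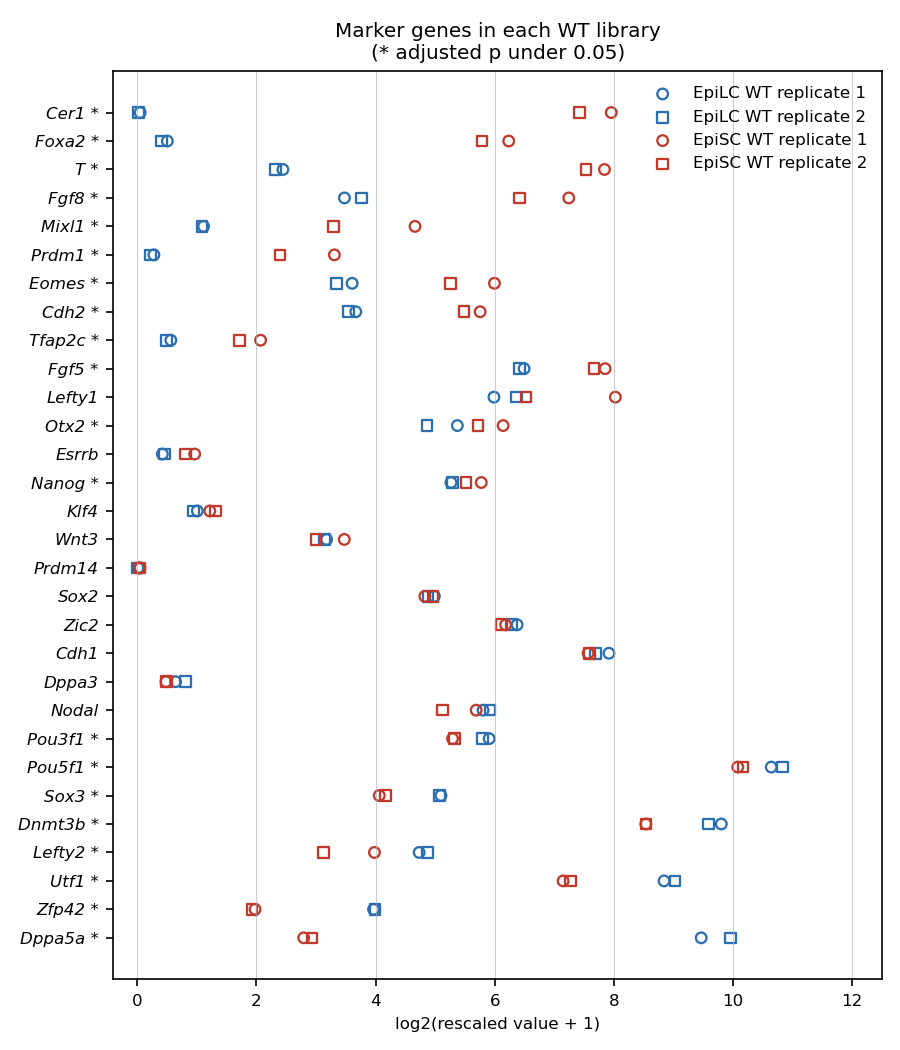
Abundance of 30 marker genes in each of the 4 WT libraries as log2 of the rescaled value + 1 (x axis), ordered by the difference between stage means; blue is EpiLC, red EpiSC, circles replicate 1 and squares replicate 2, and a star marks adjusted p under 0.05. Cer1, Foxa2 and T stand far to the right in EpiSC, Dppa5a and Zfp42 to the left, and Lefty1 shows the EpiSC libraries apart at 259 and 91.3.

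Formative genes mostly fell. Of 20 tested members, 15 were called lower (75%) and 3 higher (15%), against 19.3% and 23.8% of all genes tested. Their median log2 fold change was -0.65. The falls were moderate in size. Dnmt3a and Dnmt3b, the de novo DNA methyltransferases, went from 172 and 163 to 46.1 and 45.3 (-1.85, SE 0.08) and from 892 and 770.4 to 370.3 and 370.4 (-1.16, SE 0.12). Dnmt3l, their cofactor, went from 8.30 and 8.87 to 2.94 and 2.56 (-1.35, SE 0.12). Sox3, a SoxB1 factor, went from 33.2 and 32.6 to 15.7 and 17.0, and Pou3f1, a POU factor also named Oct6, from 59.0 and 54.6 to 38.2 and 39.1. Pou3f1 was called with all libraries (limma adjusted p = 0.00398) but not without EpiSC replicate 1 (0.0508). The 3 rises were Fgf5, Otx2 and Cdh2. Otx2, a homeobox factor of the formative state, went from 40.4 and 28.1 to 69.6 and 51.8 (0.81, SE 0.20, limma adjusted p = 0.0201), a call lost without EpiLC replicate 2 (0.0521) or EpiSC replicate 1 (0.0755). Cdh2, or N-cadherin, went from 11.7 and 10.7 to 53.0 and 43.7 (2.01, SE 0.12), while Cdh1, or E-cadherin, was not called, at 241 and 205 in EpiLC and at 189 and 192 in EpiSC. Without EpiLC replicate 2, Cdh1 was called lower (-0.34, adjusted p = 0.00582).

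In the core pluripotency list, 3 of 14 tested members were called higher (21.4%, against 23.8% of all genes) and 6 lower (42.9%, against 19.3%), counts that were 0 and 4 without EpiSC replicate 1 and 0 and 2 without replicate 2. Utf1, a chromatin factor of pluripotent cells, went from 458 and 520 to 141 and 153 (-1.73, SE 0.11). Nanog, which was at 37.5 and 38.2 in EpiLC and at 53.7 and 44.9 in EpiSC, was called higher with all libraries (0.37, SE 0.11, limma adjusted p = 0.0361) and in none of the 4 fits with a library left out, where its adjusted p ran from 0.0521 to 0.315. In the naive list, 6 of 13 tested members were called lower, 2 of them through EpiLC only, and 4 higher (30.8%), of which 2 were called without EpiSC replicate 2. Zfp42, the naive marker also named Rex1, went from 14.6 and 14.9 to 2.94 and 2.80 (-2.03, SE 0.11). Among the rises was Spp1, or osteopontin, from 4.39 and 4.73 to 16.5 and 18.1 (1.72, SE 0.11). Of 9 tested genes of primordial germ cell specification, 6 were called higher (66.7%) and 3 lower (33.3%), both above the shares of all genes. Of the rises, 2, Prdm1 and Tfap2c, reached 1 in EpiSC only. The median log2 fold change of the tested members was 1.36, against 0.01 over all genes tested. The 14 members with a value summed to 1687 and 1928 in EpiLC and to 1549 and 1539 in EpiSC, sums that follow the most abundant members. The genes named next are all rises. Prdm1, or Blimp1, the repressor that starts the germ cell fate, went from 0.214 and 0.164 to 8.91 and 4.25 (2.60, SE 0.29). Its partner Tfap2c went from 0.479 and 0.408 to 3.20 and 2.28 (1.36, SE 0.16), and Ifitm1, a transmembrane protein of the early germline, from 8.65 and 8.86 to 100.1 and 89.1 (3.29, SE 0.10). Prdm14 was near 0 in all 4 libraries, as given above.

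Of 14 tested germline genes that DNA methylation is known to silence, 13 were called lower (92.9%) and 1, Tdrkh, higher (7.14%). Over all genes tested the shares were 19.3% and 23.8%. Of the falls, 9 reached 1 in EpiLC only and had to differ, which leaves 4 lower and 1 higher among the 5 that reached it in both stages. Mael, a piRNA pathway protein of the germline, went from 14.3 and 16.4 to 0.514 and 0.431 (-3.47, SE 0.13), Tdrd1, a Tudor protein of the same pathway, from 3.64 and 2.91 to 0.172 and 0.167 (-1.87, SE 0.14), and Mov10l1, an RNA helicase, from 2.84 and 2.36 to 0.0240 and 0.0107 (-1.82, SE 0.13). No stage overlapped for these 3 genes. Hox genes were low throughout and lower in EpiSC. Only 7 of 39 passed the filter on low values, all through the EpiLC libraries, and all 7 were called lower. Their count is no support, since a gene that passed through EpiLC alone had to differ. Hoxc10, a posterior Hox gene, read 4.14 and 4.69 in EpiLC and 0.0664 and 0.0595 in EpiSC, and all 39 summed to 31.9 and 35.2 in EpiLC and to 3.64 and 2.76 in EpiSC.

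Complete switches were rare. Of all genes, 37 were under 0.5 in both EpiLC libraries and at least 5 in both EpiSC libraries, 30 of them protein coding. The reverse held for 8 genes, 6 of them protein coding. Both groups were chosen by these values, so their size is a description. Beside the leading genes, those switched on included Shh, the hedgehog ligand of the axial midline (0.0298 and 0.0315 to 9.44 and 10.3), Cfc1, a Nodal co-receptor also named Cryptic (0.0854 and 0.0966 to 28.0 and 18.3), Ntn1, a guidance ligand (0.434 and 0.258 to 21.6 and 16.3), and Aplnr, the apelin receptor (0.0678 and 0.111 to 9.11 and 9.74). Those switched off included Syce1, a protein of the meiotic synaptonemal complex (7.75 and 8.07 to 0 and 0.0161), and Rpl39l, a ribosomal protein paralog of the testis (8.97 and 12.7 to 0.0414 and 0).

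**Figure D4:**
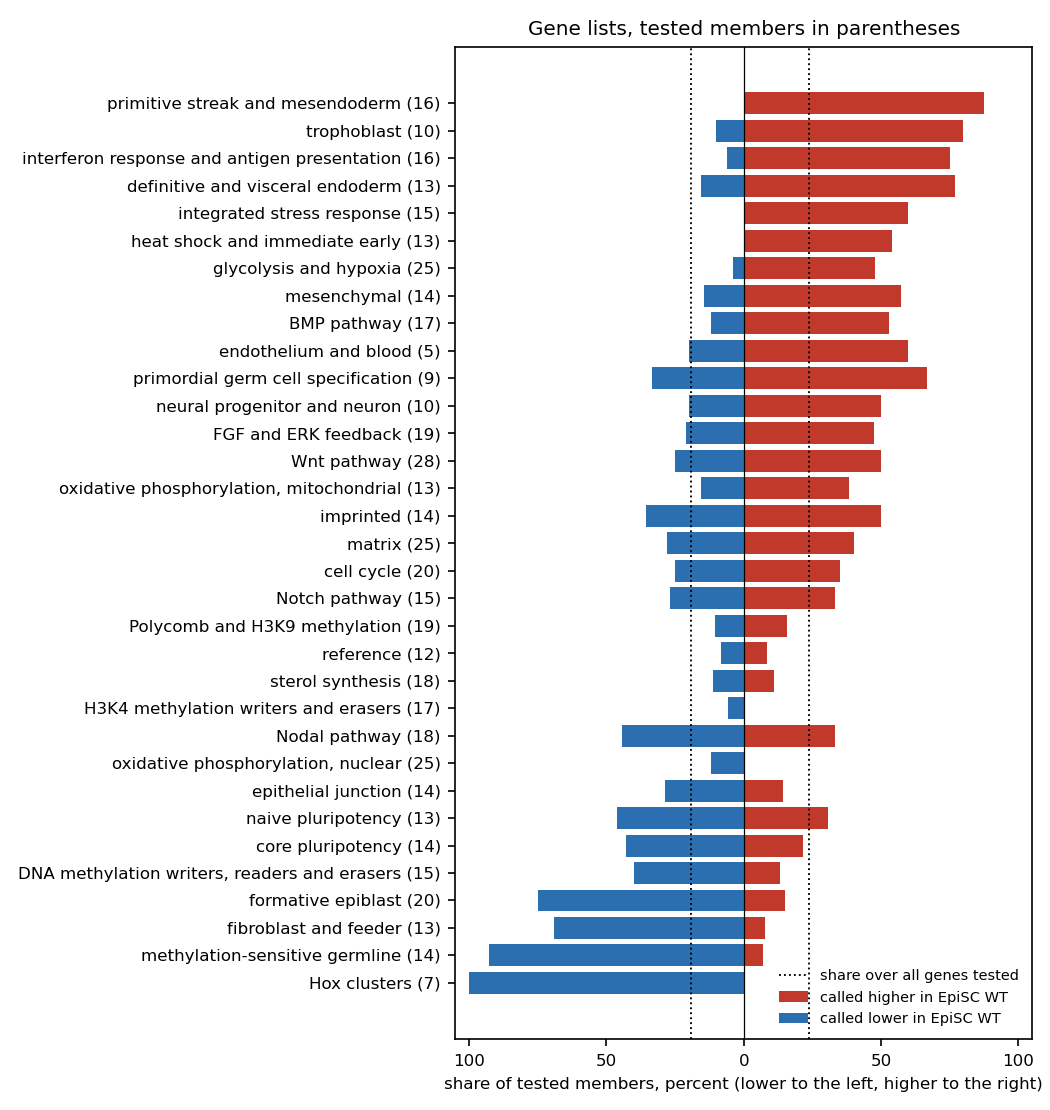
Share of tested members of each gene list called higher in EpiSC WT (red, to the right) and called lower (blue, to the left), in percent, with the number tested in parentheses and dotted lines at the shares over all genes tested, 23.8% higher and 19.3% lower. The streak list stands at the top with 14 of 16 higher, and the methylation-sensitive germline and Hox lists at the bottom; 6, 9 and 7 of these calls were of genes that reached 1 in only 1 stage.

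Metabolic and stress lists differed from one another. Counts here and in the next paragraph are to be read against the 23.8% of all genes called higher and the 19.3% called lower. Of 25 tested genes of glycolysis and hypoxia, 12 were called higher (48%) and 1 lower (4%), which passed through EpiLC only. The glucose transporters Slc2a3 and Slc2a1 went from 61.4 and 57.7 to 315 and 335 (2.43, SE 0.09) and from 79.3 and 84.6 to 205 and 260.4 (1.48, SE 0.13), and Vegfa, a hypoxia-induced growth factor, from 13.9 and 14.03 to 45.8 and 52.9 (1.75, SE 0.10). Without EpiSC replicate 2, 6 members of the list were called higher. Of 25 nuclear genes of oxidative phosphorylation, none was called higher and 3 lower (12%), below the shares of all genes, and the number called varied widely with the library left out. Their median log2 fold change was -0.22, and between -0.31 and -0.06 with 1 library left out. Of 18 tested genes of sterol synthesis, 2 were called higher and 2 lower (11.1% each), also below those shares. In the list of the integrated stress response, 9 of 15 tested members were called higher and none lower, with Atf3, a stress-induced factor, from 6.20 and 5.46 to 19.9 and 21.4 (1.67, SE 0.11). The rises numbered 5 without EpiSC replicate 1 and 4 without replicate 2. In the interferon and antigen presentation list 12 of 16 were higher, 3 of them through EpiSC only, and 1 lower. Psmb8, an immunoproteasome subunit, went from 0.778 and 0.872 to 17.8 and 14.2 (3.22, SE 0.14), and Tap2, the peptide transporter, from 0.533 and 0.963 to 12.0 and 9.91 (2.78, SE 0.17). The inflammasome genes Pycard and Aim2 are not on this list and were among the leading falls.

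Of 14 mesenchymal genes, 8 were called higher (57.1%), 2 of them through EpiSC only, and 2 lower (14.3%), 1 of them through EpiLC only. Vim, the intermediate filament vimentin, went from 180.5 and 211 to 477 and 449 (1.24, SE 0.11), and Snai1, a repressor of E-cadherin, from 1.099 and 1.04 to 4.94 and 4.28 (1.44, SE 0.13). Of 14 epithelial junction genes, 2 were called higher (14.3%), 1 of them through EpiSC only, and 4 lower (28.6%). Of 14 tested imprinted genes, 7 were higher and 5 lower, led by Peg3, a paternally expressed zinc finger gene, from 20.3 and 15.2 to 96.3 and 98.0 (2.40, SE 0.14), and the falls numbered 2 without either EpiSC library. Writers and erasers of H3K4 methylation differed little, with 1 of 17 tested members called, Kdm5b, which went from 68.3 and 61.4 to 51.5 and 53.5. That call was lost without either EpiSC library (limma adjusted p = 0.304 and 0.216), while 7 members were lower without EpiLC replicate 2 and 4 were higher without EpiLC replicate 1. Of 19 Polycomb and H3K9 methylation genes, 3 were called higher (15.8%) and 2 lower (10.5%), below the shares of all genes. These counts varied with the library left out. Of 12 reference genes used by most cells, 1 was higher and 1 lower, which became 3 and 3 without EpiLC replicate 1, while none was lower without either EpiSC library. The higher was Pgk1, also a glycolytic enzyme, from 469.9 and 598 to 1013 and 1139.

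The study drew its own sets of genes specific to stages from single cells of other cultures, and these sets were set beside the bulk values. Over all genes, 23.8% were called higher and 19.3% lower. Of 503 tested genes of its EpiSC set, 314 were called higher (62.4%) and 23 lower (4.57%) in the EpiSC WT libraries, with a median log2 fold change of 0.57. Of 336 tested genes of its EpiLC set, 31 were higher (9.23%) and 192 lower (57.1%), with a median of -0.52. Of 335 tested genes of its set for primordial germ cell-like cells, 51 were higher (15.2%) and 156 lower (46.6%), with a median of -0.30. Of 360 tested genes of its embryonic stem cell set, 109 were higher (30.3%) and 107 lower (29.7%), above the shares of all genes in both directions (median 0.01).

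The same stage change was measured in the 4 dCD libraries, which share none with the WT comparison. Limma called 3013 of 12307 genes tested (24.5%), 1571 higher (12.8%) and 1442 lower (11.7%). Without EpiLC dCD replicate 2 the count was 6961, without EpiSC dCD replicate 1 it was 1884 and without replicate 2 it was 1776. Of the 4975 genes called in WT and tested in dCD, 4335 changed in the same direction, 1906 were also called in that direction and 99 were called in the opposite one. Of 2762 genes higher in WT, 39.2% were called higher in dCD, against 12.8% of all genes, and of 2213 lower in WT, 37.2% were called lower, against 11.7%. Of 247 genes with a 4-fold change in WT, 239 had the same sign in dCD and 218 were called. The share of all genes tested with the same sign is not given here, so these counts of sign are descriptions. Lhx1 (7.13), Sox17 (6.68), Gsc (5.90) and Foxa2 (5.39) rose in dCD by sizes near those in WT, and Dppa5a (-8.36), Pycard (-4.99) and Rpl10l (-5.37) fell.

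The difference between the stage changes, dCD minus WT, was tested over all 8 libraries. It passed the threshold for 1298 of 12720 genes (10.2%), 530 with the change higher in dCD (4.17%) and 768 with it lower (6.04%). With any WT library left out the count was between 422 and 631. Cer1 rose in both genotypes, by 7.65 in WT and 4.88 in dCD, and the difference was -2.78 (limma adjusted p = 0.00299). In dCD, with all 8 libraries rescaled together, Cer1 went from 0.0631 and 0.0161 to 25.6 and 33.8, below both WT EpiSC values. T rose by 5.30 and 3.89 (difference -1.40, limma adjusted p = 0.00487). Its dCD values were above those of WT at both stages, at 18.4 and 18.6 in EpiLC and at 280 and 300 in EpiSC. Eomes and Mixl1 showed the opposite order, with rises of 2.15 and 2.88 in WT and 3.98 and 5.39 in dCD (differences 1.84 and 2.52, limma adjusted p = 0.0183 and 0.0342). Gbp2 rose by 5.32 in WT and by 1.24 in dCD (difference -4.08, limma adjusted p = 4.11e-04). In dCD it was already at 24.6 and 27.5 in EpiLC, and reached 62.2 and 63.4 in EpiSC, against 86.0 and 70.1 in WT EpiSC. Lhx1, Sox17 and Foxa2 did not pass this test.

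**Figure D5:**
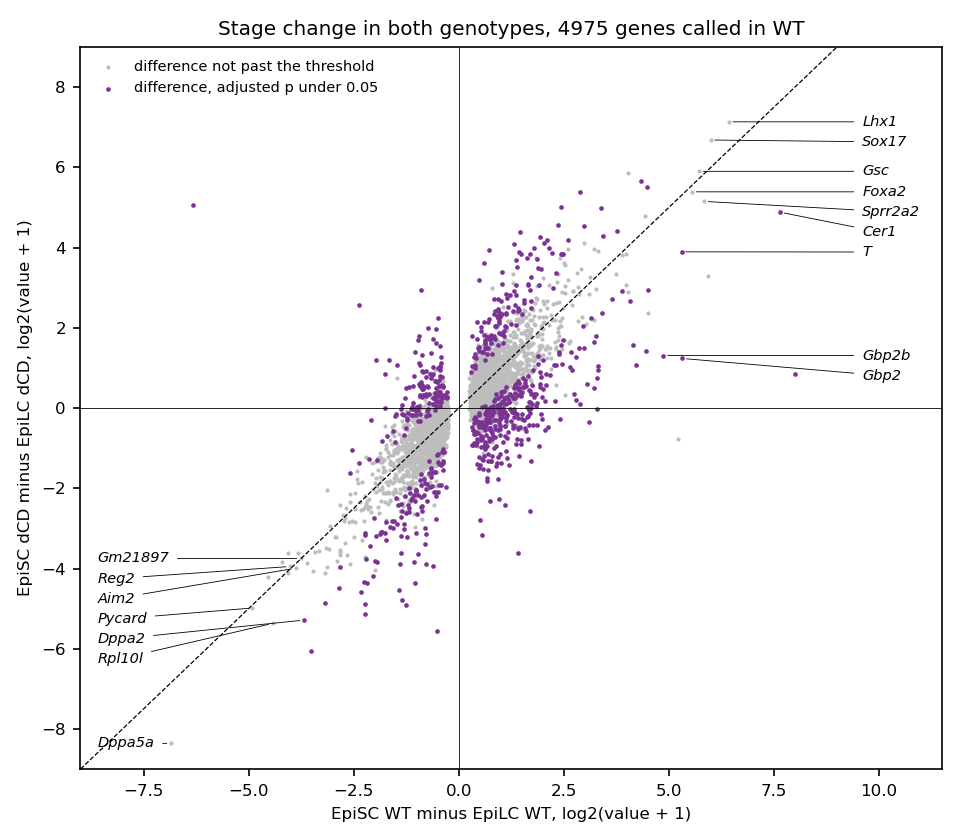
Stage change in WT (x axis) against stage change in dCD (y axis), both as the difference of EpiSC and EpiLC means in log2(value + 1), for the 4975 genes called in WT and tested in dCD; purple points are genes whose change differed between genotypes at adjusted p under 0.05. Gsc, Foxa2 and Pycard lie near the dashed line of equal change, and Cer1, T, Gbp2 and Gbp2b below it.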

How the data were processed

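RNA-seq was analysed from EpiLC and EpiSC of R1 mouse cells, 2 libraries for each stage and genotype. Per the paper's methods, the authors quantified transcripts with kallisto and summed them to Ensembl genes of mm10 with sleuth. The deposited columns are headed TPM, but their sums differ between libraries, so they were treated as a signal that the authors had scaled by a factor for each library. They are not counts, and no count test was run. The 6 ESC columns that match no sample here were not used.

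The 4 WT columns were rescaled by the median of ratios over 16284 genes above 0 in all 4 (factors 0.937 to 1.06). Values were transformed as log2(value + 1). Genes at 1 or more in at least 2 libraries were fitted by limma 3.58.1 in R 4.3.3 with a trend in the prior variance and Benjamini-Hochberg adjustment. The dCD stage change was fitted on its own 4 libraries, and the difference between genotypes on all 8. The fits were tested on simulated data. Copies of the leading pseudogenes and of Gm21897 only were searched, with blastn 2.17.0 against GENCODE transcripts. Plots were drawn with matplotlib 3.10.9.

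Genes named are the 12 highest and 12 lowest log2 fold changes among called genes with a mean of at least 5, the 6 largest rises and 6 largest falls in mean value, up to 4 called members with the largest change on each list, and a panel of 30 markers. Switched genes were under 0.5 in both libraries of 1 stage and at least 5 in both of the other. The other genes were named after their values were seen. The members, gene lists and panel were chosen with earlier results of these data known. The study's stage-specific gene sets came from its supplementary tables. Alternatives covered scaling, pseudocount, filter, libraries in the fit, weights, variance trend, replicate block and each library left out.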

Additional observations from a re-analysis of the deposited data

Results flagged for a closer look

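The stage change differed between genotypes, by limma's test of the difference over all 8 libraries, for 56 of 146 named genes with such a test, where 10.2% of all genes passed. Many of these genes were named for a large WT stage change, and the WT values enter the difference. Their share and the counts of smaller and larger changes are therefore descriptions, and cannot be judged against that of all genes. The values below are the dCD stage change minus the WT stage change, on the log2(value + 1) scale. They can come from the level at either stage. In 31 of the 56 genes the dCD change was smaller or opposite, and in 19 it was larger in the same direction; the rest were not tested in WT alone or in dCD alone. No cause was tested.

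Among genes of the streak and its signals, the difference was -2.78 for Cer1, -1.40 for T, -2.57 for Chrd, -0.92 for Nog, -0.91 for Bmp7 and -0.91 for Bmp2. It was positive for Eomes (1.84), Mixl1 (2.52), Wnt3 (1.94), Dkk1 (1.03), Sfrp1 (1.41), Cxcr4 (1.33), Kit (2.12) and Jag1 (1.51). Wnt3 overlapped between stages in WT and rose by 2.01 in dCD. Mfng stood at -1.57, Fgf4 at -1.35 and Fgf15 at 1.48.

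Among pluripotency and germline genes, the difference was -2.24 for Esrrb, -2.14 for Zfp42, -1.59 for Dppa2, -0.80 for Sox2, -3.40 for Dnmt3l, -3.31 for Ifitm1, 1.45 for Tfap2c and 0.80 for Zic2. Spp1 went in opposite directions, 1.72 in WT and -1.31 in dCD (difference -3.02). The stage change of Dnmt3l was -1.35 in WT and -4.77 in dCD.

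Among stress and metabolic genes whose difference passed, the values were -2.37 for Chac1, -2.27 for Trib3, -1.71 for Atf3, -2.19 for Hspb1, -2.28 for Slc2a1, -0.86 for Slc2a3 and -0.71 for Dhcr7. The stage change of Slc2a3 was 2.43 in WT and 1.56 in dCD. Other named genes of these lists, such as Vegfa and Pgk1, did not pass. Among interferon genes, those that passed had differences of -4.08 for Gbp2, -3.56 for Gbp2b, -1.55 for Psmb8 and -1.51 for Tap2, while Gbp3 did not pass. Imprinted genes gave -1.52 for Peg10, -1.16 for Sgce and 1.35 for Phlda2, and Krt19 gave -1.56.

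Posterior and other lineage genes gave 1.79 for Hoxb9, 2.56 for Hoxc10, 2.85 for Hoxa9, 3.19 for Hoxa10, 2.39 for Zic1, 1.17 for Irx3, -0.90 for Six3, 0.85 for Runx1, -1.05 for Gata1, -0.91 for Cbx7 and 1.60 for Ccnd2. Col3a1 fell by 2.38 in WT and rose by 2.57 in dCD (difference 4.95), and Dcn gave 0.76. The pseudogenes Gm10241 (-7.15) and Gm12918 (11.38) have copies identical over their whole length, and their values are uncertain.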

How the results depend on the processing

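No gene called in the WT comparison changed sign under any alternative, and between 1280 and 1332 of the 1332 genes called at 2-fold stayed called, except with a mean of at least 5 (690) or protein-coding genes only (1227), where fewer genes were tested. Called falls numbered 1541 with the columns as deposited. At 2-fold, a pseudocount of 0.1 gave 825 falls, a pseudocount of 5 gave 307 rises and 162 falls, and a mean of at least 5 gave 446 rises and 245 falls. With each WT library left out in turn, the calls ranged from 2996 to 6530, rises from 1778 to 3405 and falls from 1218 to 3125. Leaving out dCD libraries gave 1776 to 6961 dCD calls. For the difference between genotypes the replicate block gave 781 calls and leaving out WT libraries 422 to 631. The alternatives with dCD or genotype calls and a library left out, with protein-coding genes only and with the length trend removed (6113 calls) were chosen after seeing the data. The causes were not tested.

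The labels do not say whether the replicate numbers pair the samples. The correlation between stages of replicate 2 minus replicate 1 was 0.05 over 12002 genes, which cannot settle it with 2 pairs. With the replicate block, 5519 genes were called, against 5177 without it. Of 143 named genes called, 21 lost their call with no filter, 15 with all 8 libraries in the fit, 24 without EpiSC replicate 1 and 21 without replicate 2, and at most 6 under any other alternative. With no counts, depth sets no limit that could be stated here.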

Other observations

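Neighbouring genes that moved together included several families. Runs of at least 6 tested protein-coding genes called in the same direction numbered 13, with other genes between them left out. The number of runs to be expected with 43.1% of genes called was not worked out. On chromosome 4 (145510759 to 146539395, GRCm38), 8 neighbours were lower, with a median log2 fold change of -1.45, of which Zfp990, Zfp980, Zfp986, Zfp987, Zfp600, Zfp992 and Zfp981 are zinc finger genes. They resemble one another in sequence, so reads may be shared among them. On chromosome 3 (142239590 to 142783606), 7 neighbours were higher, with a median of 1.61, among them Gbp7, Gbp3, Gbp2b and Gbp2. A pair of runs of clustered protocadherins, 6 genes each, was higher, with medians of 1.04 and 1.30, and their shared exons make single members uncertain. The run of 9 on chromosome 9 (116084293 to 119093502) held Eomes and Tgfbr2, with a median of 0.67.

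The EpiLC libraries differed from each other with transcript length. Replicate 2 minus replicate 1 had a median of 0.21 in the shortest of 5 equal length groups of tested genes and -0.22 in the longest, on the log2(value + 1) scale. Between the EpiSC libraries those medians were 0.002 and -0.02. The stage change had medians of -0.09 in the shortest group and 0.09 in the longest. With the trend of each library with transcript length removed, 5008 of the 5177 called genes were called in the same direction, as were 141 of 143 named genes.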
